A study of Rattus norvegicus with 6 samples.

Results

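The skeletal muscle programme genes described here are 9 genes known for their part in skeletal muscle, some of which the heart also uses: the myogenic regulatory factors Myod1, Myf5, Myog and Myf6, the acetylcholine receptor subunit genes Chrna1 and Chrng, and the muscle fibre genes Actn3, Ckm and Casq1. They were chosen by name, with the counts and the treatment contrast of these same libraries already known, so their values are given as a description with no p-value. Of the 9, 8 had a row under their name among the 33565 rows of the gene count table, and the expression of Chrng is not analysed here. Of those 8 rows, 2 (Ckm and Casq1) passed the filter on low counts, and the other 6 are given as raw counts.

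The libraries came from primary cardiomyocytes of postnatal day 7 Sprague-Dawley rats, grown with 10% fetal bovine serum. For 24 h they received an unnamed vehicle (control) or 100 nM progesterone, a steroid hormone. Each group had 3 libraries of mRNA-enriched RNA, called biological replicates in the labels. No genotype or drug other than the vehicle or hormone is labelled, and whether the libraries came from separate animals or pooled hearts is not given, so differences are measured against the spread between these libraries, which may be technical. The series title asks about progesterone and YAP, a transcriptional coactivator, in cardiomyocyte proliferation.

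The myogenic regulatory factors are basic helix-loop-helix proteins that pair with E proteins and bind the E-box, a short DNA motif, in muscle genes. In the skeletal lineage Myod1 and Myf5 commit progenitors, Myog drives differentiation into fibres, and Myf6 acts in late differentiation and in mature fibres. Heart muscle forms without them and is not known to express them, although it shares many contractile and metabolic genes with skeletal fibres.

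All 12 cardiomyocyte markers had enough counts to be tested, with summed levels of 16732 to 17171 CPM (counts scaled for library size, with TMM for composition) in control libraries and 18308 to 20962 CPM with progesterone. Markers of the labelled cell type were thus read in every library, beside fibroblast markers (8 genes) that summed to 27509 to 28600 CPM in controls and 36939 to 39898 CPM with progesterone. That sum does not stand for each fibroblast marker, as 4 were higher and 3 lower. Col3a1, for one, went from a mean of 6556 to 13735 CPM and Dcn from 2094 to 946 CPM. The libraries held 21156793 to 25376220 counts.

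The promoter windows of the members show where E-boxes lie near their starts, and 3 are printed because Casq1 and Ckm carried nearly all the members' reads while Chrna1, with as many E-boxes, was nearly unread. Sequences are RefSeq windows of build GRCr8, from 250 bases before to 50 bases after the gene start, 5′ to 3′ on the gene's strand, with E-boxes in capitals. They lie at chr13:87212661-87212960 (minus strand) for Casq1, chr1:88189211-88189510 (plus strand) for Ckm and chr3:78877304-78877603 (minus strand) for Chrna1.
Casq1: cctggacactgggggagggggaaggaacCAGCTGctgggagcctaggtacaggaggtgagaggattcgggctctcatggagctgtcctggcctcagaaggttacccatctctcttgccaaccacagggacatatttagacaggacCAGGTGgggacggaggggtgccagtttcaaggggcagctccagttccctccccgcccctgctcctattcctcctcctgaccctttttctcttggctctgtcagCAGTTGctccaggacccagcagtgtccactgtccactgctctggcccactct
Ckm: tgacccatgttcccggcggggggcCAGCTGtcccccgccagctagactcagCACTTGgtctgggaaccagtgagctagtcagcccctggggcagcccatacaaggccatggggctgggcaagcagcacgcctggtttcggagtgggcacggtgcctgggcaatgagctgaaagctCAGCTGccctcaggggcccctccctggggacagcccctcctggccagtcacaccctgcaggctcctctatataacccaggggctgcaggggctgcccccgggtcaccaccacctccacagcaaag
Chrna1: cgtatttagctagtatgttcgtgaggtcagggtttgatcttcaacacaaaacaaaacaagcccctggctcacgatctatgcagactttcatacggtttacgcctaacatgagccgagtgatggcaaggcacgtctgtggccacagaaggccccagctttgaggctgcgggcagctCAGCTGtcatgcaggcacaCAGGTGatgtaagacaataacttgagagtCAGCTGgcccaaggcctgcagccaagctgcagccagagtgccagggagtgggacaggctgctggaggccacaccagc

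A window was found for 8 of the 9 members, Myod1 being the exception. The motif CANNTG, which is its own reverse complement, had 3 matches each in Casq1, Ckm and Chrna1, 4 in Chrng, 2 in Myog, 1 in Myf6 and none in Myf5 or Actn3. Among all 33469 windows of 300 bases, 72.1% held at least 1 match and 16.6% held at least 3. The form CAGCTG, a subset of CANNTG, had 2 matches in each window of Ckm, Chrna1 and Chrng and 1 in that of Casq1, against 15.1% of all windows with at least 1 and 1.69% with at least 2. In Casq1 the E-boxes began at positions -222, -105 and -2 relative to the gene start, in Ckm at -226, -199 and -75, and in Chrna1 at -75, -56 and -27. The TEAD motif CATTCC (either strand; in 14.2% of all windows), the MEF2 consensus in its strict form (CTA and TAG with 4 bases of A or T between; in 0.565%) and the palindromic steroid receptor motif (GNACA and TGTNC with 3 bases of any kind between; in 0.439%) had no match in the 8 windows. A wider MEF2 form, tried after the strict one and allowing any pyrimidine as the first base and any purine as the last (in 3.29%), had 1 match, in Myf6 at -76. A match is a run of letters and not a site shown to be bound, and a window without a match is not shown to lack a site.

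Among the myogenic regulatory factors, Myod1 was read in progesterone libraries alone, and the other 3 were at or near 0 in both groups. The 4 genes together had 11 counts in controls and 20 with progesterone, so any statement about them rests on single reads. Myod1 (chromosome 1, 102396538 to 102399248, plus strand, in the rat build of the table, which is not named) had 0, 0 and 0 counts in control replicates 1 to 3 and 5, 7 and 5 counts in progesterone replicates 1 to 3. All 3 progesterone libraries were above all 3 controls. With the control group set at a floor of 3 counts, Myod1 was 6.13-fold higher with progesterone. The 17 progesterone counts are taken there as they stand, without their counting error, so this fold is not a strict lower limit. The level of Myod1 stayed low, at 0.133 ± 0.0307 FPKM (fragments scaled for gene length and library size; SD, n = 3). The nearest row, Kcnc1 on the same strand at a distance of 15377 bases, had 14 and 15 counts over the control and progesterone groups.

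Myf5 (chromosome 7, 49729533 to 49732764, minus strand) had no count in any of the 6 libraries. A count of 0 allows up to 0.0421 CPM over the control group and 0.0456 CPM over the progesterone group (3 counts of each total). Floors and counting intervals here cover counting error only. Myf6 lies 6882 bases away on the same strand (49739646 to 49741540) and had 3, 2 and 0 counts in controls and 0, 1 and 0 with progesterone. Its groups overlapped, and the ratio of pooled counts, progesterone over control, was 0.216 with a 95% counting interval (exact binomial) of 0.00458 to 1.93. Myog (chromosome 13, 51126459 to 51129048, plus strand) had 2, 3 and 1 counts in controls and 0, 0 and 2 with progesterone, again overlapping, with a ratio of 0.361 (0.0356 to 2.02). Both intervals include no change, so the depth does not show a difference for either gene in either direction. The libraries in which Myod1 was read thus held 0, 0 and 2 counts of Myog, which follows Myod1 in skeletal differentiation.

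**Figure D1:**
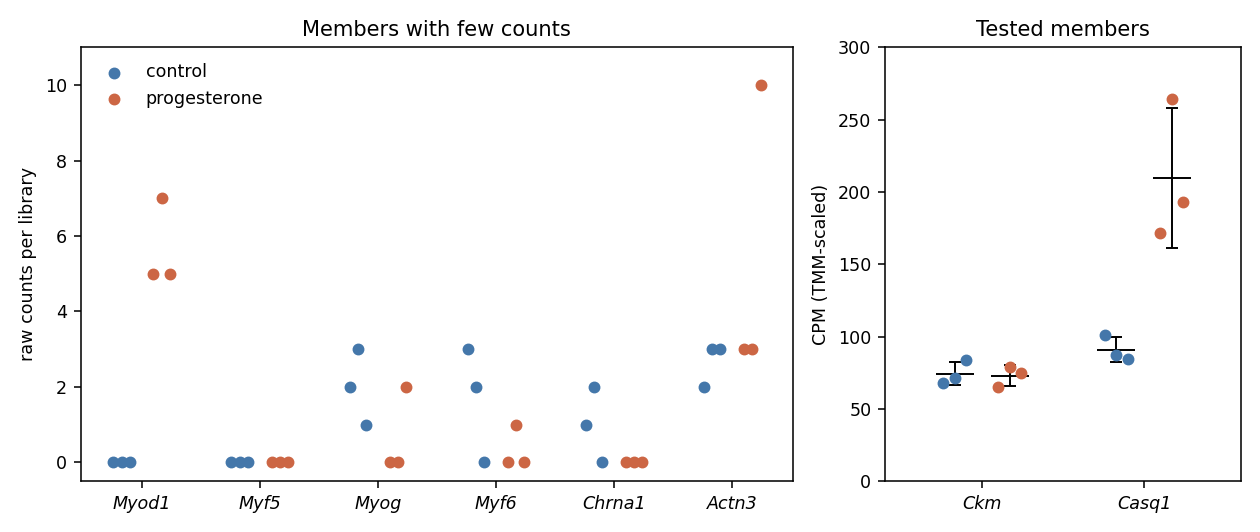
Left, raw counts per library of the 6 members with few counts; right, TMM-scaled CPM of the 2 tested members, with the mean and SD of 3 libraries as black bars. Myod1 has 0 counts in every control library and 5 to 7 with progesterone, Ckm overlaps between the groups, and Casq1 is higher in all 3 progesterone libraries.

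The acetylcholine receptor of muscle is a pentamer that converts nerve signals into depolarisation, with the gamma subunit in fetal receptors and the epsilon subunit in adult ones. Chrna1 (chromosome 3, 60445666 to 60460724, minus strand), which encodes the ligand-binding alpha subunit, had 1, 2 and 0 counts in controls and 0, 0 and 0 with progesterone. Both groups were at or under 3 counts, so no fold is given, and the alpha subunit was barely detected or not detected at this depth. Of its partners, Chrnd (delta) had 4 and 1 counts over the groups, and the tested Chrnb1 (beta) and Chrne (epsilon) had log2 fold changes of 0.44 ± 0.20 and -0.08 ± 0.34 (SE), with adjusted p values of 0.0663 and 0.853 in edgeR's quasi-likelihood test. Chrnb1 passed under 2 alternatives, upper quartile scaling (0.54, adjusted p = 0.0276) and limma on log2(FPKM + 1) (0.23, 0.0466).

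The fibre genes separated into a pair read at substantial levels and 1 that was nearly unread. Ckm and Casq1 had similar levels in controls, 51.6 ± 5.66 and 49.2 ± 4.77 FPKM (SD, n = 3), which differed by less than their spread. With progesterone Casq1 stood above Ckm, at 113 ± 26 against 50.5 ± 4.88 FPKM. Below them, in controls, came Myog (0.0576 FPKM), Myf6 (0.0514), Actn3 (0.0391) and Chrna1 (0.0226), and with progesterone Myod1 (0.133), Actn3 (0.0826), Myog (0.0198) and Myf6 (0.0118). Neighbours in that order of low genes are not separated in FPKM by their spread. Most differed by a few reads, while Actn3 and Myog had 16 and 2 counts over the progesterone group. Of the 15075 genes tested, 63.0% had an adjusted p under 0.05. The 2 tested members are not set against that share, since the contrast was known when the genes were chosen.

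Casq1 (chromosome 13, 90592681 to 90602365, minus strand) encodes calsequestrin 1, the high-capacity calcium-binding protein in the sarcoplasmic reticulum of fast skeletal fibres. Its level was 101, 87.5 and 84.7 CPM in control replicates 1 to 3 and 172, 264 and 193 CPM in progesterone replicates 1 to 3. Every progesterone library was above every control, and progesterone replicate 2 was the highest. Groups lay apart, whether higher or lower with progesterone, for 68.6% of the 15075 tested genes. The fitted log2 fold change was 1.20 ± 0.20 (SE), or 2.30-fold higher, and 1.00 without progesterone replicate 2. Among the 15075 tested genes its mean FPKM ranked 1805th in controls and 682nd with progesterone. Of the 3 nearest rows, Dcaf8, 885 bases away on the opposite strand, ran from 102 to 105 CPM in controls and 78.1 to 87.7 CPM with progesterone, and Pea15, 3215 bases away on the same strand, from 207 to 234 and 281 to 320 CPM. The third, Atp1a4, 3429 bases away on the same strand, had 9 and 18 counts over the groups.

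Ckm (chromosome 1, 80321585 to 80331841, plus strand) encodes the muscle form of creatine kinase, which regenerates ATP from phosphocreatine in both skeletal and cardiac muscle. It had 68.1, 71.6 and 83.8 CPM in controls and 65.1, 79.0 and 74.9 CPM with progesterone. The groups overlapped throughout, and the log2 fold change was -0.03 ± 0.10 (SE). Its sign changed between settings (-0.09 to 0.07), all close to 0. Within each library the ratio of Casq1 to Ckm in FPKM was 1.16, 0.954 and 0.788 in controls and 2.06, 2.61 and 2.01 with progesterone, so that it was higher in every progesterone library than in any control.

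Actn3 (chromosome 1, 220120533 to 220136470, minus strand), which encodes the alpha-actinin of fast-fibre Z-discs, had 2, 3 and 3 counts in controls and 3, 3 and 10 with progesterone. The groups met at 3 counts, and 10 of the 16 progesterone counts came from replicate 3. The pooled ratio was 2.16 with a counting interval of 0.874 to 5.84, which includes no change. Its neighbour Ctsf, 557 bases away on the opposite strand, had 4305 and 2738 counts over the groups.

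The paralogues of the fibre genes show how far the skeletal form contributed beside the form typical of heart or of other tissues. Casq2, the cardiac calsequestrin, was 212 ± 0.671 FPKM in controls and 247 ± 15.6 FPKM with progesterone (SD, n = 3) and rose (log2 fold change 0.22 ± 0.05, SE, adjusted p = 0.000653). Casq1 made up 20.5%, 18.2% and 17.8% of the summed calsequestrin FPKM in controls and 28.4%, 35% and 30% with progesterone, with no overlap between the groups. Ckb, the brain-type creatine kinase, rose (0.87 ± 0.06, adjusted p = 5.3e-08) while the groups overlapped for Ckm, and the share of Ckm in the summed Ckm and Ckb FPKM was 37.8% ± 2.65 in controls and 24.6% ± 1.37 with progesterone. The Z-disc of these cells was represented by Actn2, the sarcomeric form shared by heart and skeletal muscle, at 274 and 337 FPKM, beside which Actn3 was 0.0143% ± 0.00354 and 0.0243% ± 0.0166 of the pair. The non-muscle actinins Actn1 and Actn4 rose by 1.38 and 0.97 on the log2 scale and the mitochondrial creatine kinase Ckmt1 by 1.09. These 6 paralogues were higher under each of the 4 scalings tried. Another paralogue of Ckm, the sarcomeric mitochondrial creatine kinase Ckmt2, which is listed with the metabolism genes and was singled out after its values were seen, had 23, 54 and 46 counts in controls and 20, 16 and 23 with progesterone. It fell (log2 fold change -0.94 ± 0.33, SE, adjusted p = 0.0222), but the groups overlapped and the call was lost under 6 alternatives, DESeq2 (adjusted p = 0.0549) and the leaving out of control replicate 2 (0.129) among them. Fewer cells of a type and less RNA per cell cannot be told apart in these bulk libraries.

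**Figure D2:**
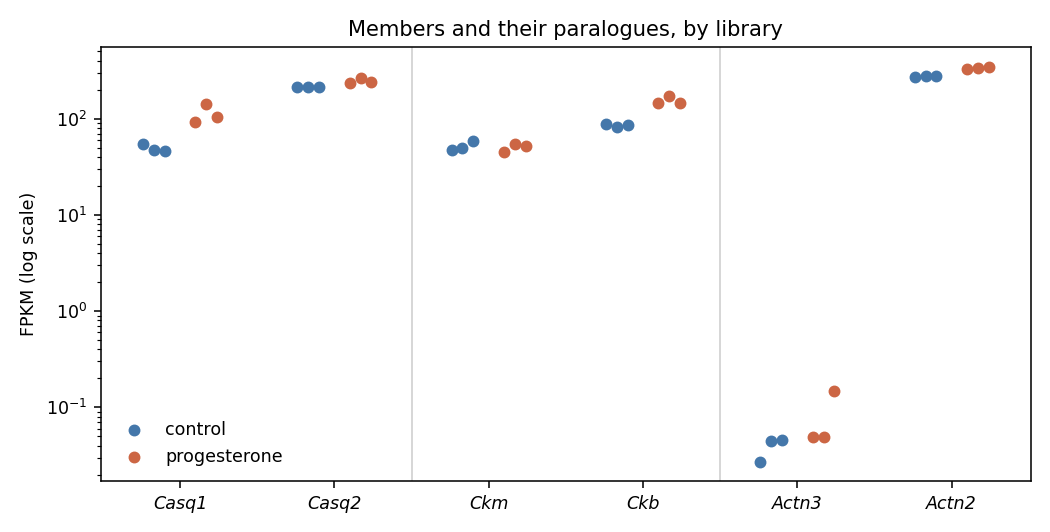
FPKM per library, on a log axis, of Casq1, Ckm and Actn3 beside their paralogues Casq2, Ckb and Actn2, with points for the 3 control and 3 progesterone libraries. Casq1 lies below Casq2 in every library and Actn3 lies at 0.0273 to 0.150 FPKM, far below Actn2.

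The genes whose profile over the 6 libraries was closest to that of Casq1 were Hsf2bp, Egln3 and a row with a clone name, with root mean square differences of 0.0446, 0.104 and 0.106 in centred log2(CPM + 0.5). Egln3, a prolyl hydroxylase of hypoxia-inducible factors, had means of 58.3 CPM in controls and 137 CPM with progesterone. These are likenesses over 6 points dominated by the difference between the groups.

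Markers of other cell types differed between the groups in the same libraries as Casq1 and Myod1. All 10 smooth muscle and pericyte markers were higher with progesterone, their sum being 2241 to 2617 CPM in controls and 5409 to 6033 CPM with progesterone. All 5 tested of 7 macrophage markers were higher too (sums of 15 to 26.7 and 52.5 to 63.0 CPM), fibroblast markers had 4 of 8 higher and 3 lower, and endothelial markers 2 of 6 higher and 1 lower. Schwann cell and neuron markers had 2 of 5 tested higher and 1 lower. Cardiomyocyte markers had 6 of 12 higher and 3 lower, and no marker of these lists was at 0 counts throughout. The part of these shifts in the values of Casq1 and Myod1 was not tested. Of the genes that define skeletal progenitors, Pax7 had 2 counts and Pax3 2 counts in all 6 libraries together, and Lbx1 had 1.

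The wider skeletal muscle programme was followed in 8 lists of 147 related genes, of which 137 had a row and 112 were tested. Of these 112, 34 were higher (30.4%, where 31.2% of all tested genes were) and 47 lower (42.0%, against 31.8% of all tested), with a median log2 fold change of -0.06 against 0.00 for all tested genes. With upper quartile scaling, which gave 60.1% of all changed genes as higher where TMM gave 49.6%, the related genes divided into 42 higher and 39 lower. The related genes moved in both directions, and 40 of the 137 stayed below 1 FPKM in every library, Mymx, which drives myoblast fusion, and the calcium channel subunit gene Cacng1 being at 0 counts.

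Upstream of the myogenic factors, 4 of 13 tested progenitor genes were higher and 5 lower. Msc, a repressor of Myod1 activity, fell (log2 fold change -2.29 ± 0.17, SE, adjusted p = 1.24e-08), the homeobox gene Meox2 rose by 1.75 and Itga7, the best-read of the list, fell by 0.24 on the log2 scale. Of 24 tested partners and antagonists, 12 were higher and 5 lower, or 13 and 2 with upper quartile scaling. Id1, Id2, Id3 and Id4, which sequester the E protein partners of the myogenic factors and were singled out after their values were seen, rose by 0.68, 0.63, 0.60 and 0.85 on that scale. Srf, which activates actin genes, rose by 0.89 and Snai1 by 0.86. Fusion genes had 2 of 13 higher (Adgrb3, with 4 and 37 counts over the groups, and, outside the naming rule, Fst) and 7 lower. With upper quartile scaling 4 fusion genes were higher and 6 lower. The log2 fold changes were -1.95 for Nphs1 and -0.25 for Cdh2, the best-read.

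At the neuromuscular junction, 3 of 12 tested genes were higher and 7 lower (4 and 6 with upper quartile scaling). Musk, the receptor kinase that clusters acetylcholine receptors, had 121, 120 and 128 counts in controls and 2, 8 and 6 with progesterone (log2 fold change -4.37 ± 0.30, SE, adjusted p = 4.29e-09). Rapsn, which anchors those receptors, fell by 1.13 on the log2 scale, and Utrn, the best-read, by 0.17, a call lost with upper quartile scaling (adjusted p = 0.206). In controls Musk stood at 1.81 and Rapsn at 6.1 FPKM, where Chrna1 was at 0.0226 FPKM, and with progesterone Musk was at 0.0849 FPKM.

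Among developmental and fast sarcomere genes, 6 of 14 tested were higher and 4 lower. The call of Xirp2, among those higher (adjusted p = 0.0291), was lost without the low-count filter (0.0541). It was also lost without any 1 control replicate (0.0608 to 0.0995) or progesterone replicate 3 (0.0531). Neb did not pass (0.0503) but passed as lower with library size scaling (0.0476) and without control replicate 1 (0.0496). Xirp2 and Neb were named after their values were seen. Myh3, the embryonic skeletal myosin, had 29, 32 and 12 counts in controls and 397, 365 and 307 with progesterone (16-fold higher, adjusted p = 7.26e-06). Myh2, a fast myosin, had 6, 0 and 5 against 92, 86 and 82 counts (log2 fold change 4.65 ± 0.44, SE, adjusted p = 1.73e-06). Acta1, the best-read of the list, rose by 1.80 on the log2 scale. The 4 that fell were Mybph by 1.4, Klhl40 by 1.54, Myoz3 by 1.45 and Myoz1 by 2.47 on that scale, Myoz1 having 33, 34 and 31 counts in controls and 3, 4 and 9 with progesterone; these were named after their values were seen. Mybph encodes a myosin-binding protein, Klhl40 a protein that stabilises thin filaments, and Myoz1 and Myoz3 Z-disc proteins that bind calcineurin. The perinatal myosin Myh8, outside the naming rule and chosen after its values were seen, had 0, 0 and 0 against 5, 7 and 11 counts. The rows of Myh2 (chromosome 10, 53713938 to 53848347) and Myh8 (53818818 to 53918524) overlap on the same strand and the myosins are similar in sequence, so the counting could have divided their reads uncertainly. Myh1 and Myh4, of the same list, had no row, and the gene length of the Myh2 row was 18143 bases against 6035 for Myh3. Whether the Myh2 row also holds reads of other myosins was not tested. Even with progesterone Myh3 reached 2.71 FPKM and Myh2 0.219 FPKM, beside 306 FPKM for the cardiac and slow myosin Myh7.

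**Figure D3:**
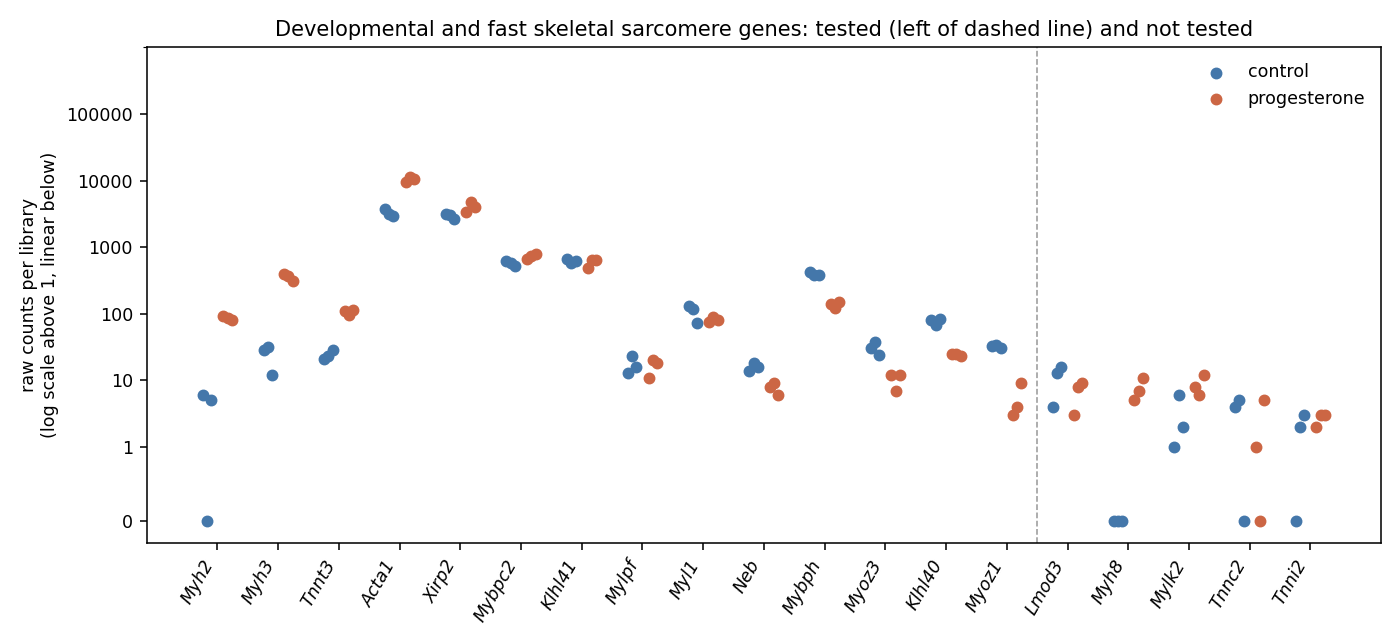
Raw counts per library (log scale above 1, linear below) of the 19 developmental and fast skeletal sarcomere genes with a row, with points for the 3 control and 3 progesterone libraries; the 14 tested genes are ordered by fold change, and the 5 untested genes follow the dashed line. Myh2, Myh3, Tnnt3, Acta1, Xirp2, Mybpc2 and Myh8 are higher in all 3 progesterone libraries. Neb, Mybph, Myoz3, Klhl40 and Myoz1 are lower in all 3. Klhl41, Mylpf, Myl1, Lmod3, Tnnc2 and Tnni2 overlap between the groups, and the groups of Mylk2 meet at 6 counts.

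Genes that work beside calsequestrin moved in both directions. Of 13 tested excitation-contraction coupling genes, 3 were higher and 6 lower (4 and 5 with upper quartile scaling). On the log2 scale Kcnc4 rose by 2.59, Scn4a, the skeletal sodium channel, fell by 2.28, and Cav3, the best-read, fell by 0.23. Trdn, which tethers calsequestrin at the junctional membrane, and Ryr1, the skeletal calcium release channel, fell by 0.84 and 1.87. Both were singled out after their values were seen, and the call of Ryr1, at 65 against 16 counts, was lost with limma on log2(FPKM + 0.1) (adjusted p = 0.0956) and log2(FPKM + 1) (0.329). Hrc, another calcium-binding protein of the reticulum, fell by 1.59 (adjusted p = 2.57e-06). Sypl2 and Sln, of the coupling list, rose by 0.66 and 0.27. Ryr1 was at 0.0602 FPKM in controls. Ryr2, one of the cardiomyocyte markers, was at 29.7 FPKM in controls and 30.3 FPKM with progesterone and did not pass (log2 fold change 0.03 ± 0.06, SE). Sypl2, Sln and Ryr2 were also named after their values were seen.

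Of 14 tested muscle metabolism genes, among which Ckm would belong by function, 1 was higher and 10 were lower (3 and 10 with upper quartile scaling), with a median log2 fold change of -0.57. Besides Hrc, Fbxo32, an atrophy-related ubiquitin ligase gene, fell by 1.35 on that scale and Cox6a2, the best-read, fell by 0.23. Slow sarcomere genes shared with heart had 3 of 9 higher and 3 lower (4 and 1 with upper quartile scaling). Tnnc1 and Tnni1 rose by 0.52 and 0.51, and Myh7, the best-read, by 0.14, a call lost without progesterone replicate 2 (adjusted p = 0.0566).

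**Figure D4:**
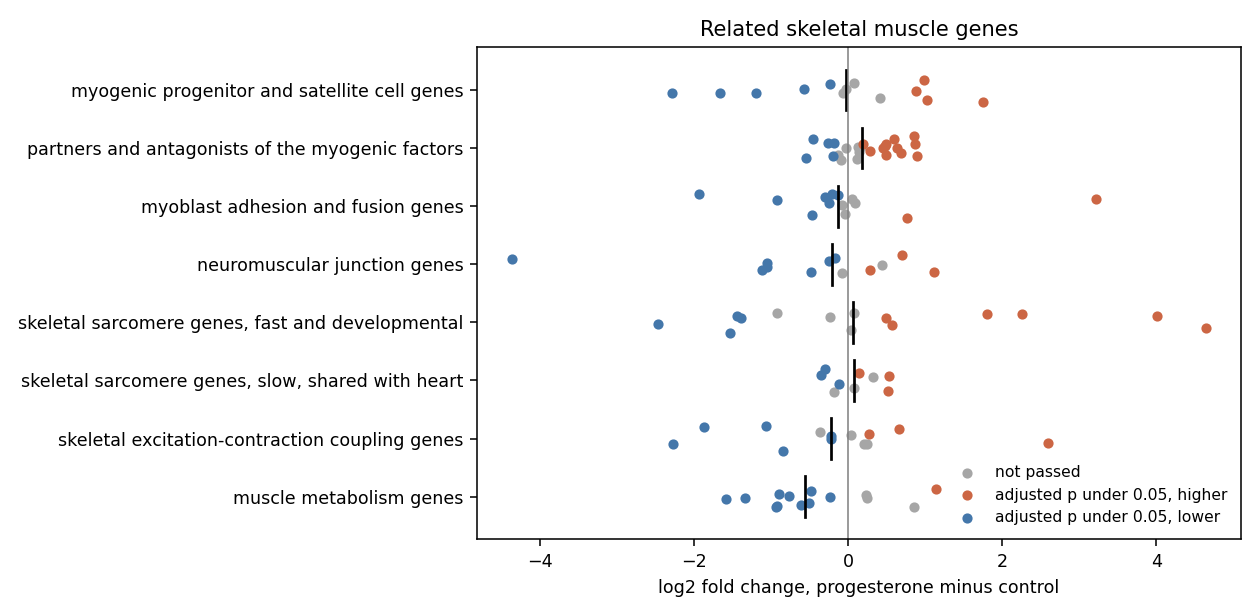
Log2 fold changes, progesterone minus control, of the 112 tested related genes by list, 1 point per gene, coloured by whether the adjusted p was under 0.05 and in which direction; black lines are list medians. The medians run from -0.57 for muscle metabolism to 0.18 for partners and antagonists of the myogenic factors, and Musk, Myh2 and Myh3 lie farthest from 0.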

How the data were processed

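Gene expression was measured by RNA-seq in 6 libraries, grouped by their titles. The authors deposited raw counts per gene and FPKM values, the latter with 1 divisor per library within 1.57% of the count total. Per the submitters' processing notes the tool was Bowtie 0.12.2 and the build mm8 (mouse), whereas the row identifiers are of rat. For the counts, the rat build, counter and strand setting are not given.

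The test was edgeR 4.0.16 in R 4.3.3 on the counts (filterByExpr, minimum count 10 and total 15; TMM; robust glmQLFit and glmQLFTest; Benjamini-Hochberg over 15075 genes, threshold 0.05). SEs come from the F statistic. The 682 rows without a gene name (0.867% of counts) were kept as loci. Clone-named rows took symbols through NCBI gene identifiers (RefSeq, GRCr8, names alone), which the members did not need. Replicate pairs gave a chi-square of 5.39 to 9.33 per degree of freedom, so none was counted as a duplicate. Same-numbered libraries did not deviate together (r = 0.076, 0.023 and 0.014).

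Members and lists were chosen with earlier results of these data known. Named related genes are, per list, the 2 largest changes past an adjusted p of 0.05 with non-overlapping groups, plus the best-read gene. Alternatives were 3 other scalings, 2 other filters, each replicate left out, a replicate block, DESeq2 1.42.0, and limma 3.58.1 on log2(FPKM + 1) and log2(FPKM + 0.1).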

Additional observations from a re-analysis of the deposited data

How the results depend on the processing

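Every alternative kept the count of changed genes within 8608 to 9871 of the 9497 reported, that of related genes higher within 32 to 42 (34 reported) and that of related genes lower within 39 to 49 (47 reported). Leaving out 1 replicate gave 8686 to 9131, 33 to 36 and 45 to 48. The log2 fold change of Casq1 ran from 1.00 to 1.33 and that of Ckm from -0.09 to 0.07 over all alternatives, each moving by less than the spread between replicates. With the replicate number as a block, 9508 genes changed and Casq1 was at 1.18; the labels do not say that the numbers pair libraries. Depth limits the 6 members under the filter: 3 counts are 0.118 to 0.142 CPM in a library, so Myod1, Myog, Myf6, Chrna1 and Actn3 lie near the smallest detectable level. No fit is reported for them, so no alternative was set against one.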

Other observations

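The count table also holds the subunit genes of the neuronal nicotinic receptors, which were looked at after the values of the muscle subunits were seen. Of 15 nicotinic subunit rows, those of muscle included, 4 were tested. In edgeR's quasi-likelihood test 2 were higher with progesterone, where 31.2% of all tested genes were. The 2 that did not pass were the muscle subunit genes Chrnb1 and Chrne. Chrna5, which encodes an accessory alpha subunit of neuronal receptors, had 19, 18 and 18 counts in controls and 42, 56 and 63 with progesterone (log2 fold change 1.67 ± 0.24, SE, adjusted p = 2.34e-05). Chrnb2, a beta subunit of neuronal receptors, had 22, 20 and 19 counts against 44, 37 and 46 (1.18 ± 0.24, adjusted p = 0.00055). All 3 progesterone libraries were above all 3 controls for Chrna5 and Chrnb2, and for Chrnb1 as well. Groups lay apart, in either direction, for 68.6% of all tested genes. Chrna4, the usual alpha partner of Chrnb2, was under the filter with 6, 14 and 5 counts in controls and 2, 2 and 0 with progesterone. Each of these rows held more counts than Chrna1, the muscle alpha subunit, with 3 counts in all.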
